A study of Mus musculus with 6 samples.

Results

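Immediate early genes are described here in mouse epiblast stem cells that had differentiated for 2 days as embryoid bodies in serum. The 10 genes were chosen by symbol: the AP-1 genes Fos, Fosb, Jun, Junb and Jund, the EGR genes Egr1, Egr2 and Egr3, and Atf3 and Ier2. They are 10 of the 55471 gene identifiers in the count tables, and all 10 were among the 15091 genes with enough reads to be tested. The study compared 3 libraries labelled Mixl1 induced with 3 labelled Mixl1 KO. Mixl1 encodes a homeobox protein made in the primitive streak. The induced embryoid bodies came from a line with inducible Mixl1, treated with 1 µg/mL Doxycycline over the final 24 h. The KO embryoid bodies are given as Mixl1 knockout, with no statement on Doxycycline for that line. Both groups derive from epiblast stem cells grown on irradiated mouse embryonic fibroblasts in 10 ng/mL bFGF plus 20 ng/mL Activin A, and were aggregated for 24 h. The line, Mixl1 and perhaps the drug differ together between the groups and cannot be told apart. The sources used here give neither the parent line, nor the number of clones, nor the knockout allele. The samples are called triplicates without a statement of separate cultures, and the spread behind each p-value may therefore be technical.

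Immediate early genes are transcribed within minutes of a signal, without new protein synthesis, and most of their mRNAs are short-lived. Growth factors in serum and FGF act through the ERK kinases on ternary complex factors and on SRF, which binds the CArG box in many of these promoters. cAMP and stress kinases act through CREB and ATF proteins on cAMP response elements (CRE). FOS and JUN proteins pair through leucine zippers to form AP-1, EGR proteins are zinc-finger factors that bind GC-rich sites, and ATF3 is a related zipper protein induced by stress. In the embryo, FGF and ERK signalling accompanies the exit from pluripotency and the passage of cells through the primitive streak.

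Promoters of 5 of these genes are shown because they cover the pair that differed most between the groups (Egr2 and Atf3), a gene whose difference did not pass the test (Fos) and 2 JUN genes that were lower together (Jun and Junb). Each run is the 250 bases before the RefSeq start site (GRCm38.p6, the assembly of mm10), 5′ to 3′ on the gene's own strand, with matches to the motifs below in capitals. The windows are chr10:67537619-67537868 on the plus strand for Egr2, chr1:191183334-191183583 on the minus strand for Atf3, chr12:85473640-85473889 on the plus strand for Fos, chr4:95052223-95052472 on the minus strand for Jun and chr8:84978749-84978998 on the minus strand for Junb.
Egr2: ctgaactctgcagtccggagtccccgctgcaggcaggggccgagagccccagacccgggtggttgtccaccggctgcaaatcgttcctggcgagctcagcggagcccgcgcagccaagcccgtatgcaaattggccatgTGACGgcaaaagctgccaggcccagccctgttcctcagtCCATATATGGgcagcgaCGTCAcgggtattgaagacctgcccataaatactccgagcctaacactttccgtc
Atf3: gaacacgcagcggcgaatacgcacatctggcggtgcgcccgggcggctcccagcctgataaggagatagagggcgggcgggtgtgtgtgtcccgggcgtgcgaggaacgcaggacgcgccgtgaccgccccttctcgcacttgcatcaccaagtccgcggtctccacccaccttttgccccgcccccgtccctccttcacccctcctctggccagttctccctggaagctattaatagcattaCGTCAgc
Fos: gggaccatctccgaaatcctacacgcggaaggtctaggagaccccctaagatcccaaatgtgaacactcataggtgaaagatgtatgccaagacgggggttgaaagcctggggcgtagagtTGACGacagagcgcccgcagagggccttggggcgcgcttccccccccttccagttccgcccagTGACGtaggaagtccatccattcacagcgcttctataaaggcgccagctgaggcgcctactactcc
Jun: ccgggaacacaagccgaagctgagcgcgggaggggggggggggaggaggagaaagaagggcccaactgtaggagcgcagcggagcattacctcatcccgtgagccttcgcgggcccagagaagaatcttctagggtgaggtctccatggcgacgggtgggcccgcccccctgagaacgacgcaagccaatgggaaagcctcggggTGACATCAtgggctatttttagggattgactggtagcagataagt
Junb: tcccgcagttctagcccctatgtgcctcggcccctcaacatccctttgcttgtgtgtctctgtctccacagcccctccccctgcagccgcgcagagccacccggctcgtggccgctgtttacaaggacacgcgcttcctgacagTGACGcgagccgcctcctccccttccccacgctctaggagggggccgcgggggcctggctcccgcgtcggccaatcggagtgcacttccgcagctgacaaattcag
The motifs were searched on both strands as letters: the CArG box, the AP-1 site TGANTCA, the CRE-like site TGACNTCA, the CRE half-site TGACG and the EGR site GCGNGGGCG. A CRE-like site with G at its open base contains the half-site. The Egr2 window is 1 of 5 that RefSeq gives this gene. Its CArG box reads CCATATATGG and starts 72 bases before the start site, between 2 copies of the CRE half-site. Atf3 has 1 CRE half-site, on the other strand and 7 bases before the start site. The Egr2 and Atf3 windows lie inside the annotated genes, before internal start sites. The annotated genes begin further upstream, at chr10:67535475 for Egr2 and chr1:191218039 for Atf3. Fos has 2 copies of the half-site and Junb 1. In the Jun window the CRE-like site TGACATCA begins 45 bases before the start site. Of all 32851 promoter windows, 1.47% held a CArG box and 6.75% the AP-1 site. The CRE-like site was in 7.49%, the CRE half-site in 17.8% and the EGR site in 4.7%. Matches are a description of letters, and the windows end 250 bases upstream.

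Expression is given as CPM: reads from the gene's own strand, per 1000000 reads on the tested genes, scaled by TMM (a factor that evens out library composition). Reads on genes were 17490426 to 21026423 in induced libraries and 17950718 to 20478889 in KO libraries. Chi-square per degree of freedom was 79.6 to 91.3 for pairs of libraries from different groups and 2.25 to 5.18 within groups, where 1 would be counting noise. Mixl1 had 432.5 ± 7.54 CPM in induced libraries and 39.8 ± 2.96 CPM in KO libraries (SD, n = 3 each), which checks the induction. Since the altered exons are not named, these reads do not check the knockout. Of 12 markers of the epiblast and its exit, 11 were tested and all of these passed, in both directions. Over all tested genes 62.6% passed (edgeR, adjusted p under 0.05). Sox2, Fgf5, Otx2, Utf1 and Pou3f1 rose, by 0.43 to 1.86 on the log2 scale. Pou5f1, Nanog, Dnmt3b, Cdh1, Epcam and the streak gene T fell, with log2 fold changes of -3.14 (T) to -0.31 (Epcam). Pou5f1 was at 782.3 to 822.6 CPM in induced libraries and 1246.5 to 1334.7 CPM in KO libraries. The naive marker Zfp42 was at 0 to 0.109 CPM in induced and 0 to 0.158 CPM in KO libraries.

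The comparison of induced with KO embryoid bodies divided the immediate early genes into higher, lower and undecided ones. Egr2, Egr3 and Ier2 rose in induced libraries, while Jun, Junb, Jund and Atf3 fell, and Fos, Fosb and Egr1 did not pass the test (edgeR quasi-likelihood test, Benjamini-Hochberg adjusted p of 0.05 over all genes tested). Across all tested genes 62.6% passed, 31.0% higher and 31.6% lower. Thus 7 of 10 called is close to the share of genes called in general by edgeR. DESeq2 was run without the filter on low counts used for edgeR. It tested 20115 genes, of which 42.6% passed, and it also called 3 members higher and 4 lower. The same 7 genes were those whose libraries did not overlap between groups, which held for 67.1% of tested genes. The median log2 fold change of the 10 genes was -0.12, against 0.00 for all tested genes. In bulk RNA, fewer cells of a type and less RNA per cell cannot be told apart.

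**Figure D1:**
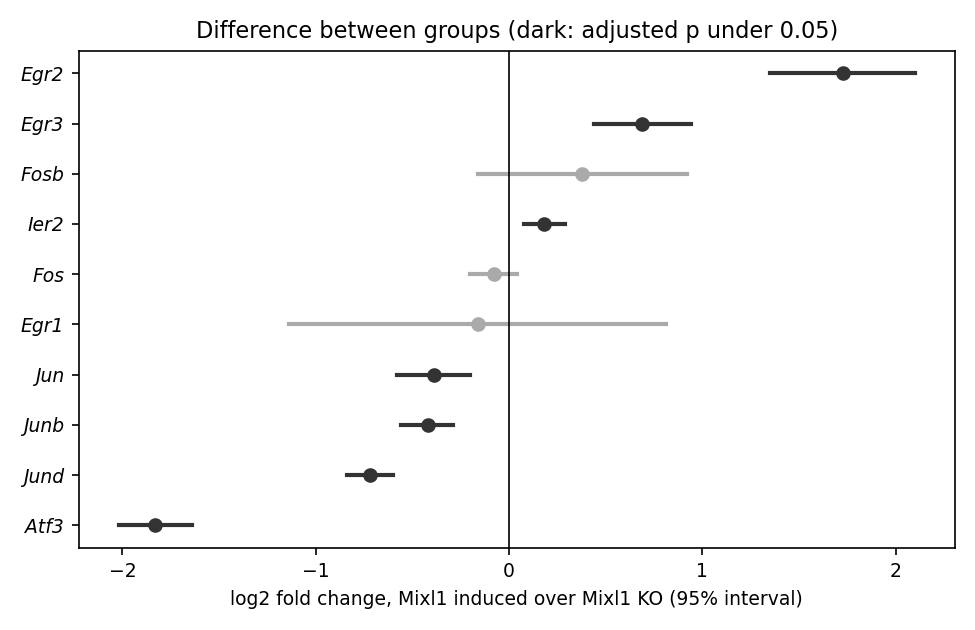
Log2 fold change of each immediate early gene, Mixl1 induced over Mixl1 KO, on the x axis, with its 95% interval from the edgeR fit as a line. Dark points passed an adjusted p of 0.05 and grey points did not. Egr2 at 1.73 and Atf3 at -1.83 stand at the ends, and the interval of Egr1 spans -1.14 to 0.81.

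Fos, which supplies the classical partner of JUN proteins, was abundant and nearly level. Its gene is at chr12:85473890-85477273 on the plus strand (ENSMUSG00000021250.13). Fos was at 56.8, 54.7 and 58.4 CPM in induced libraries and at 60.7, 55.9 and 62.7 CPM in KO libraries. The groups overlapped. The log2 fold change was -0.08 (95% interval -0.20 to 0.04; edgeR, adjusted p = 0.249), and 14.5% of tested genes had a smaller change in either direction. Fosb, a FOS relative (chr7:19302696-19310051, minus strand, ENSMUSG00000003545.3), was close to the lower end of what was tested. It had 33, 28 and 22 reads in induced libraries and 26, 19 and 20 reads in KO libraries. At that depth a difference within the interval of -0.16 to 0.92 on the log2 scale could not be decided (estimate 0.38, edgeR adjusted p = 0.212).

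All 3 JUN genes were lower in induced libraries. Jun, the founding AP-1 gene, is a single-exon gene at chr4:95049034-95052222 on the minus strand (ENSMUSG00000052684.4). Its level was 37.1, 40.6 and 30.9 CPM in induced libraries and 51.8, 43.5 and 46.6 CPM in KO libraries. The highest induced library lay just under the lowest KO library. Jun fell by 0.39 on the log2 scale (SE 0.088; edgeR, adjusted p = 0.00124), a 1.31-fold difference. Junb, which can compete with JUN in AP-1 dimers, is at chr8:84974484-84978718 on the minus strand (ENSMUSG00000052837.6). Junb was at 37.3, 33.5 and 32.8 CPM in induced libraries and at 47.6, 46.0 and 45.7 CPM in KO libraries. The groups were apart, with a log2 fold change of -0.42 (SE 0.064; edgeR, adjusted p = 5.23e-06).

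Jund, the JUN gene usually regarded as the least dependent on stimulation, had the largest fall of the 3 JUN genes. It is a single-exon gene at chr8:70698949-70700616 on the plus strand (ENSMUSG00000071076.6). Jund was at 61.8, 55.8 and 53.6 CPM in induced libraries and at 92.8, 93.7 and 95.9 CPM in KO libraries. The KO libraries lay within a ratio of 1.03 of each other. The log2 fold change was -0.72 (SE 0.056; edgeR, adjusted p = 2.27e-10), a 1.65-fold difference. The annotated antisense gene Gm11175 covers 52.6% of the Jund exon on the other strand, so counts that ignore strand drop most Jund reads as ambiguous. Such counts held 568 reads in induced libraries together and 934 in KO libraries, where the strand-specific counts held 3241 and 5425. The direction was the same in both. Opposite-strand genes also overlap Jun (Junos, 7.28% of its exon bases) and Junb (Prdx2, 7.52%). The authors' deposited table gives Jund a mean of 247.6 normalised counts and a log2 fold change of -0.68. That mean lies within the unstranded reads per library, 169 to 346, and below the strand-specific ones, 977 to 1903. The fit on unstranded counts here also gave -0.68 for Jund, and for Jun both gave -0.36.

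**Figure D2:**
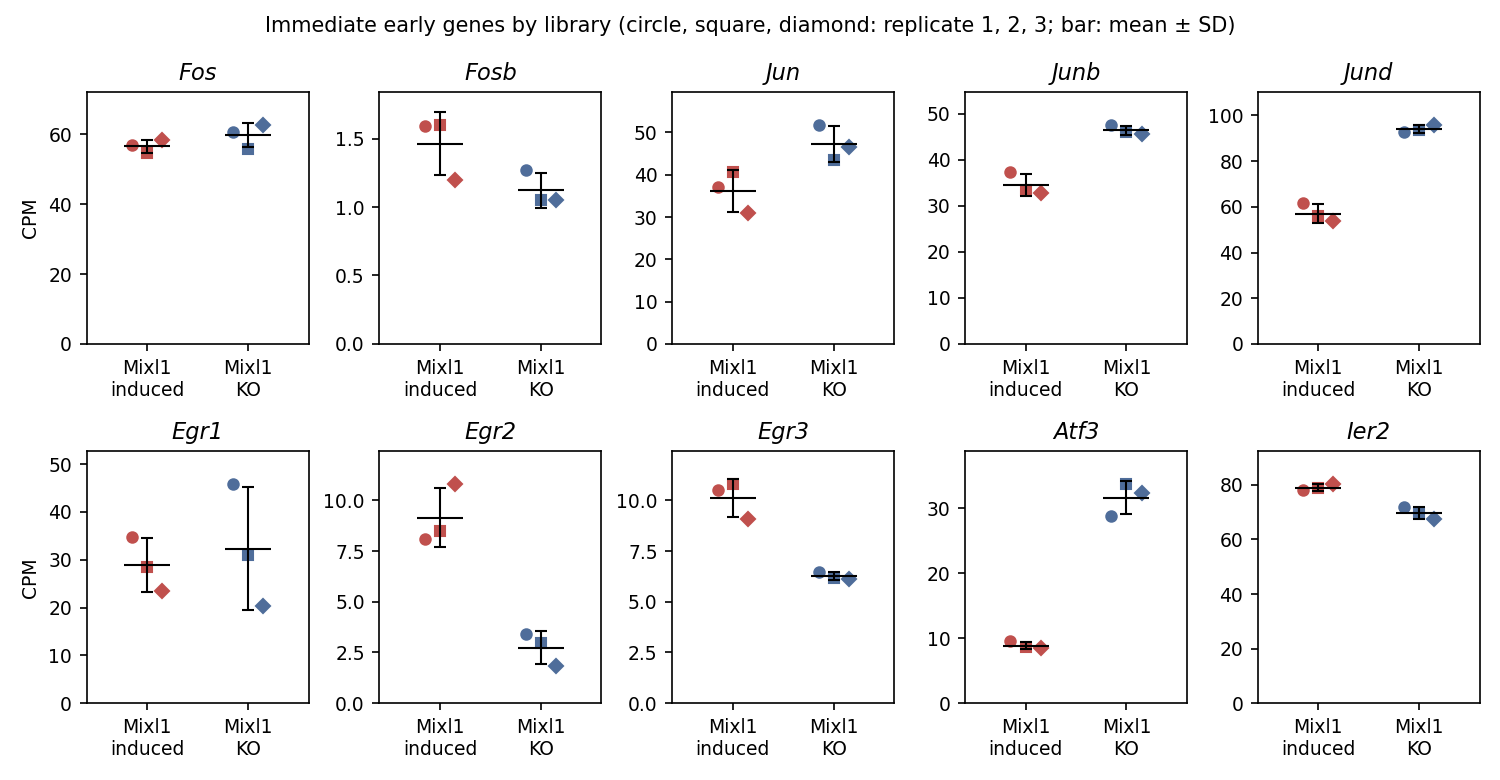
CPM on the y axis (from 0) for each immediate early gene, with the 3 Mixl1 induced libraries in red on the left and the 3 Mixl1 KO libraries in blue on the right of each panel. Symbols are single libraries and bars the mean ± SD. Atf3 lies at 8.41 to 9.50 CPM in induced and 28.8 to 33.7 CPM in KO libraries, while Fos and Egr1 overlap between the groups.

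The balance between transcripts of the JUN genes and those of Fos and Fosb therefore differed between the groups. Per kilobase of exon, the JUN genes together were at 64.9, 60.8 and 56.1 CPM per kb in induced libraries and at 92.6, 89.8 and 91.9 CPM per kb in KO libraries. Fos and Fosb together were at 24.4, 23.5 and 25.0 CPM per kb in induced libraries and at 26.0, 23.9 and 26.8 CPM per kb in KO libraries. The ratio of the JUN sum to the FOS sum was 2.66, 2.58 and 2.24 in induced libraries and 3.56, 3.75 and 3.42 in KO libraries, with no overlap. Within the JUN sum, the share of Jund was 56.5% ± 1.22 in induced and 61.7% ± 1.42 in KO libraries (SD, n = 3 each). Fos made up 98.9% to 99.2% of the FOS sum in induced libraries and 99.2% to 99.4% in KO libraries. That sum leaves out the FOS relatives Fosl2 and Fosl1, which are not among the 10 genes. Fosl2 rose, with 24.8 CPM in induced and 20.2 CPM in KO libraries (edgeR, adjusted p = 0.00212). Fosl1 fell, with 2.15 CPM in induced and 4.16 CPM in KO libraries (edgeR, adjusted p = 9.51e-05). The JUN and FOS sums are a description and were not tested.

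**Figure D3:**
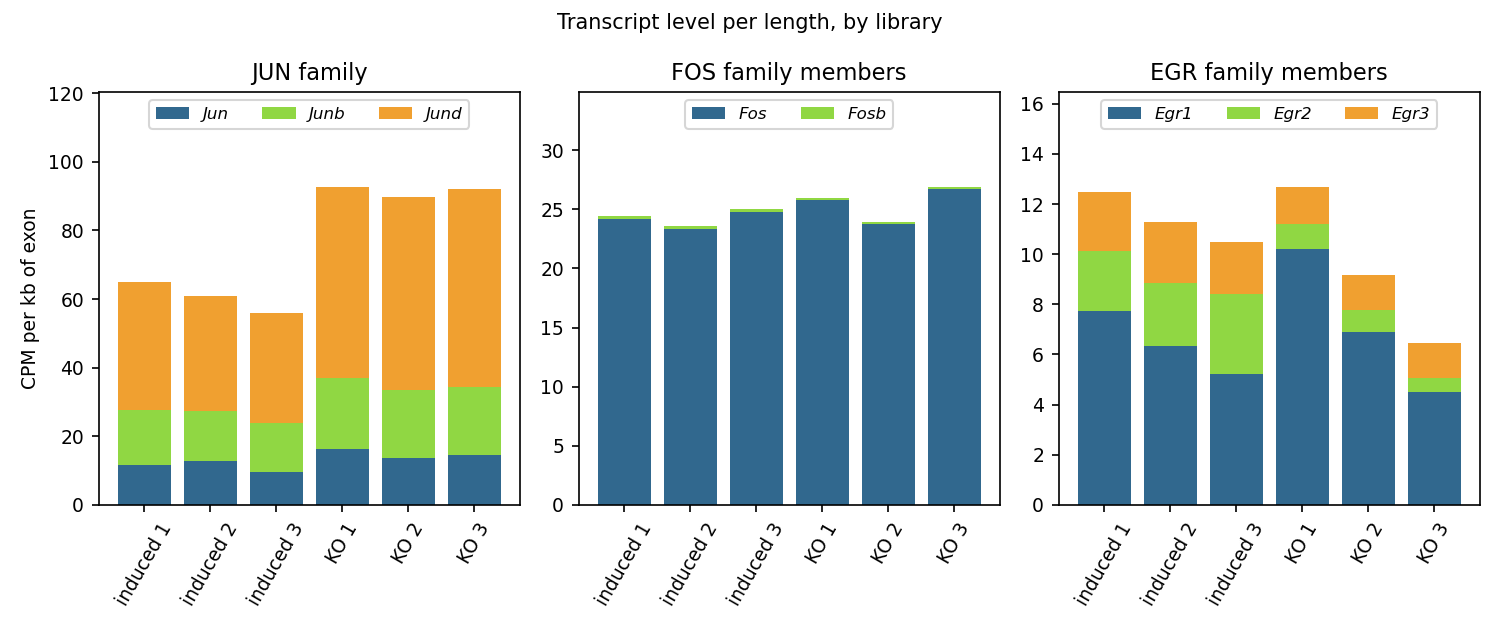
Stacked bars give CPM per kb of exon on the y axis for the genes of each family in each library, the 3 Mixl1 induced libraries left of the 3 Mixl1 KO libraries. The JUN bars are 56.1 to 64.9 in induced and 89.8 to 92.6 in KO libraries. The FOS bars, which hold Fos and Fosb alone, are nearly level. The EGR panel holds Egr1, Egr2 and Egr3 alone, and Egr1 takes on average 56.0% of their sum in induced and 75.2% in KO libraries.

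Of the 3 EGR genes described here, Egr2 and Egr3 rose and Egr1 was undecided. Egr2, also called Krox20, is a factor of hindbrain segments and of myelinating Schwann cells. It is at chr10:67535475-67542188 on the plus strand (ENSMUSG00000037868.15). Egr2 was at 8.10, 8.51 and 10.8 CPM in induced libraries and at 3.41, 2.98 and 1.84 CPM in KO libraries. Every induced library lay far above the highest KO library. Egr2 rose 3.31-fold, with a log2 fold change of 1.73 (SE 0.18; edgeR, adjusted p = 6.86e-08), and 92.0% of tested genes changed less. Egr3, a factor of muscle spindle development and T cell responses, is at chr14:70077203-70082614 on the plus strand (ENSMUSG00000033730.4). Egr3 was at 10.5, 10.8 and 9.06 CPM in induced libraries and at 6.49, 6.17 and 6.11 CPM in KO libraries. The groups did not overlap, and Egr3 rose by 0.69 on the log2 scale (SE 0.12; edgeR, adjusted p = 2.86e-05).

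Egr1, the most widely used reporter of ERK activity in this family, was set apart by its spread. The gene is at chr18:34859823-34864984 on the plus strand (ENSMUSG00000038418.7). Its level was 34.7, 28.4 and 23.5 CPM in induced libraries and 45.8, 30.9 and 20.3 CPM in KO libraries. The KO libraries thus held both the highest and the lowest value of all 6. Highest and lowest KO libraries differed 2.26-fold, from 939, 560 and 385 reads, well beyond counting noise. The biological coefficient of variation was 0.30, and 5 of the 15091 tested genes had a larger one. The log2 fold change was -0.16, with a 95% interval of -1.14 to 0.81 (edgeR, adjusted p = 0.729), which leaves the direction undecided. Without KO replicate 1 the estimate was 0.17 (edgeR, adjusted p = 0.639). Whether the change of Egr2 or Egr3 differs from that of Egr1 was not tested.

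The spread among replicates differed widely between the immediate early genes. Egr2 came after Egr1, with a biological coefficient of variation of 0.107, above that of 86.2% of tested genes. In KO libraries Egr2 had its highest value in replicate 1 and its lowest in replicate 3, as Egr1 did, and the ratio of the extremes was 1.85. Among induced libraries Egr2 was highest in replicate 3, the one where Egr1 was lowest. Fos differed 1.07-fold among induced and 1.12-fold among KO libraries. Ier2 differed 1.03-fold and 1.06-fold, and its coefficient of variation of 0.0394 was larger than that of 4.35% of tested genes. Jun and Fosb varied 1.32-fold and 1.33-fold among induced libraries, with replicate 3 lowest for both.

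**Figure D4:**
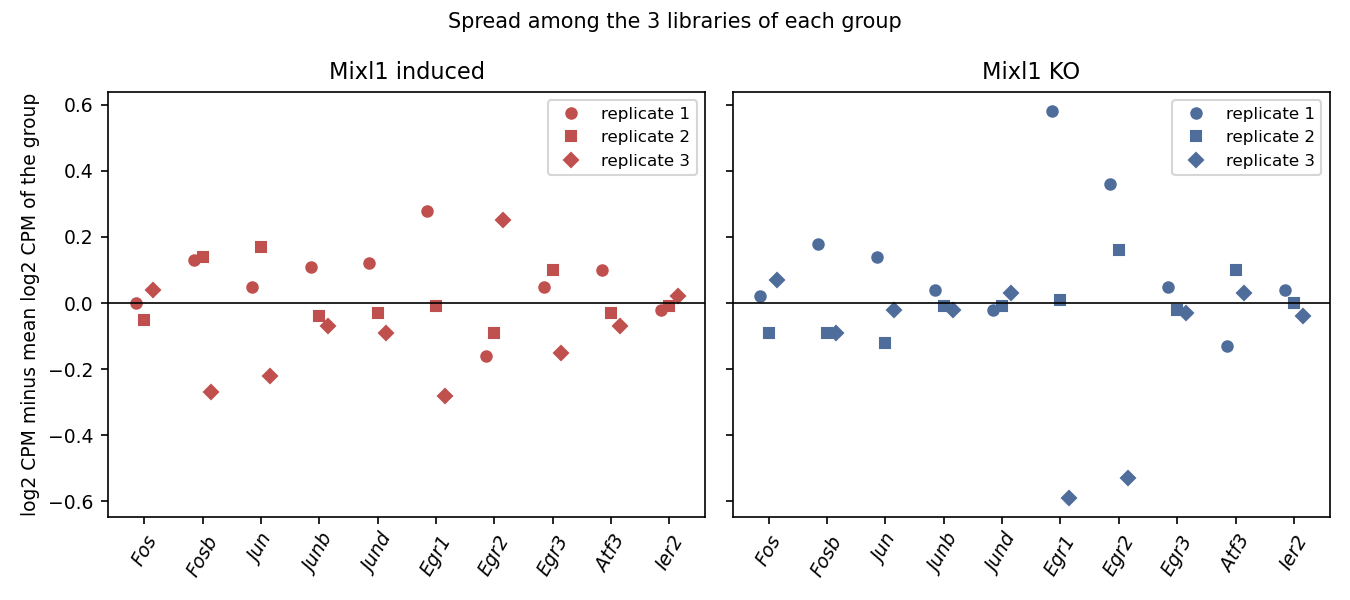
Log2 CPM of each library minus the mean log2 CPM of its group, on the y axis, for each immediate early gene, with Mixl1 induced on the left and Mixl1 KO on the right. Egr1 spans 0.56 among induced and 1.18 among KO libraries, Egr2 0.42 and 0.89, and the points of Fos and Ier2 stay within 0.09 of zero.

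Per kilobase, Egr1 remained the most abundant transcript of Egr1, Egr2 and Egr3 in each library. The Egr2 to Egr1 ratio was 0.308, 0.396 and 0.608 in induced libraries and 0.0984, 0.127 and 0.120 in KO libraries. Egr3 and Egr2 exchanged places, Egr2 being the higher on average in induced libraries (2.69 and 2.29 CPM per kb) and Egr3 in KO libraries (1.42 and 0.808 CPM per kb). In induced libraries the ranges of the pair overlapped. The sum of Egr1, Egr2 and Egr3 was 10.5 to 12.5 CPM per kb in induced and 6.45 to 12.7 CPM per kb in KO libraries. It leaves out Egr4, which rose by 0.92 on the log2 scale (edgeR, adjusted p = 0.00732). Egr4 was at 1.42 CPM in induced and 0.747 CPM in KO libraries.

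Atf3, a stress-induced repressor and activator that dimerises with JUN proteins, had the largest difference of the 10 genes. It is at chr1:191170296-191218039 on the minus strand (ENSMUSG00000026628.13). Atf3 was at 9.50, 8.63 and 8.41 CPM in induced libraries and at 28.8, 33.7 and 32.3 CPM in KO libraries. The groups were far apart relative to their spread. Atf3 was 3.56-fold lower in induced libraries, with a log2 fold change of -1.83 (SE 0.090; edgeR, adjusted p = 8.12e-14), and 92.7% of tested genes changed less. Atf3 and Egr2 were also the members that passed a test against a 2-fold change (edgeR, adjusted p = 1.64e-08 for Atf3 and 0.000974 for Egr2), which 10.8% of tested genes passed.

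Ier2, which encodes a nuclear protein induced by growth factors, showed a small and regular rise. It is a single-exon gene at chr8:84661331-84662852 on the minus strand (ENSMUSG00000053560.4). Ier2 was at 78.0, 78.7 and 80.3 CPM in induced libraries and at 71.8, 69.7 and 67.6 CPM in KO libraries. The groups did not overlap although they differed 1.13-fold. The log2 fold change was 0.18 (SE 0.051; edgeR, adjusted p = 0.00357), and 31.7% of tested genes changed less.

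By level per kilobase, the order in induced libraries was Ier2 (51.9), Jund (34.2), Fos (24.1), Junb (15.0), Jun (11.3), Egr1 (6.44), Atf3 (4.11), Egr2 (2.69), Egr3 (2.29) and Fosb (0.235 CPM per kb). In KO libraries Jund led with 56.4, followed by Ier2 (45.8), Fos (25.4), Junb (20.2), Jun (14.8), Atf3 (14.7), Egr1 (7.21), Egr3 (1.42), Egr2 (0.808) and Fosb (0.180 CPM per kb). Neighbours whose libraries overlapped were Egr2 and Egr3 in the induced group, and Jun and Atf3 in the KO group. Jund and Ier2 exchanged the lead between the groups.

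Markers of other cells also differed between the groups. For the counts below, the shares over all tested genes were 31.0% higher and 31.6% lower. Of 12 macrophage markers 11 were tested and all 11 fell, with a summed level of 47.7 to 59.9 CPM in induced and 320.9 to 461.3 CPM in KO libraries. None of them was at 0 in all libraries, and Lyz2 made up most of the sum, with 34.7 ± 3.65 CPM in induced and 311.2 ± 54.9 CPM in KO libraries (SD, n = 3 each). Of 12 fibroblast markers, which the feeder cells could carry, 7 fell and 4 rose, with sums of 545.9 to 729.3 CPM in induced and 944.1 to 1139.2 CPM in KO libraries. Among KO libraries, replicate 1 had the lowest macrophage sum and the lowest Atf3, and replicate 2 the highest of both. The JUN genes had another order there, with Jun and Junb highest in replicate 1 and Jund in replicate 3. Among induced libraries, the macrophage sum was highest in replicate 2 and Atf3 in replicate 1, while replicate 3 had the lowest of both. The part of these cells in the levels of Atf3 and the JUN genes was not tested.

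Other AP-1 zipper genes were lower more often than higher. Of 17 genes 15 were tested, 9 fell and 3 rose, with a median log2 fold change of -0.36. For this and the following lists, the shares over all tested genes were 31.0% higher and 31.6% lower. No list was tested as a set, and the lists were chosen with earlier results of these data known. Mafg, a small MAF protein that pairs with NRF2, was at 112.6 ± 0.804 CPM in induced and 155.9 ± 9.56 CPM in KO libraries (SD, n = 3 each). Nfe2l2, which encodes NRF2 itself, had a log2 fold change of -0.46, and Batf3, a zipper gene of dendritic cells, of -1.51. Maf, a large MAF factor, rose by 0.90 on the log2 scale, with 13.2 CPM in induced and 7.10 CPM in KO libraries. The adjusted p was at most 1.13e-06 for these 4 (edgeR). Batf and Batf2 had too few reads to be tested.

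Other immediate early genes went both ways. All 34 were tested, and 14 rose, 11 fell and 9 did not pass, with a median of 0.04. Ccn2, a matrix-associated protein gene that responds to SRF cofactors and YAP, was at 171.0, 171.4 and 145.6 CPM in induced libraries and at 37.0, 34.8 and 37.8 CPM in KO libraries. Its log2 fold change of 2.15 (SE 0.064; edgeR, adjusted p = 1.09e-16) exceeded that of Egr2. The Krüppel-like gene Klf6 and the CREB-responsive kinase gene Sik1 rose by 0.78 and 0.87 on the log2 scale. Klf2 fell to 3.72 ± 0.504 CPM in induced libraries, against 15.4 ± 1.78 CPM in KO libraries (SD, n = 3 each). The adjusted p was at most 8.65e-12 for these 3 (edgeR).

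Factors that act on the immediate early promoters were mostly lower or undecided. Of 15 genes 7 fell and 2 rose, with a median of -0.10. Srf was at 105.2, 95.5 and 93.2 CPM in induced libraries and at 123.7, 115.4 and 125.6 CPM in KO libraries (log2 fold change -0.31, SE 0.053; edgeR, adjusted p = 2.87e-05). The ternary complex factor gene Elk3 fell by 0.70, the CREB relative Atf1 by 0.35 and the CREB coactivator gene Crtc1 by 0.41 on the log2 scale. Nab1, which encodes a corepressor of EGR proteins, was at 30.5 ± 0.679 CPM in induced and 36.6 ± 3.36 CPM in KO libraries (SD, n = 3 each; edgeR, adjusted p = 0.00279). Its relative Nab2 had a log2 fold change of -0.08 (95% interval -0.24 to 0.08; edgeR, adjusted p = 0.364). The count of factors that rose was 1 without KO replicate 1 or 2, and without induced replicate 1 or 2.

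Kinases of the MAP kinase cascades were higher more often than lower, 10 of 23 against 5, with a median of 0.16. Mapk14, the main p38 kinase gene, was at 226.9 ± 4.16 CPM in induced and 158.2 ± 1.56 CPM in KO libraries, and Braf at 76.4 ± 0.877 and 52.9 ± 1.85 CPM in the same order (SD, n = 3 each). Of the 5 MSK and RSK genes downstream, 4 fell, and Rps6ka1 had a log2 fold change of -0.06 (edgeR, adjusted p = 0.277). Rps6ka5, the MSK kinase gene best known for phosphorylating CREB and histone H3 at immediate early genes, fell by 1.40 on the log2 scale, and Rps6ka3 by 0.58. For Mapk14, Braf, Rps6ka5 and Rps6ka3 the adjusted p was at most 1.2e-08 (edgeR).

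Feedback genes of ERK signalling were divided too. Of 18 genes 8 rose and 7 fell, with a median of -0.08. Spry4 and Phlda1, which restrain receptor and survival signalling, rose by 1.68 and 1.46 on the log2 scale, whereas the ETS factor genes Etv4 and Etv5 fell by 1.66 and 0.63 (edgeR, adjusted p of 9.27e-11 or less for the 4). Dusp1, an immediate early phosphatase gene that inactivates MAP kinases, was at 33.9, 29.0 and 32.7 CPM in induced libraries and at 43.3, 38.4 and 42.2 CPM in KO libraries. It fell by 0.37 on the log2 scale (SE 0.071; edgeR, adjusted p = 9.08e-05).

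Genes often listed as AP-1 targets were evenly divided, 10 higher and 10 lower among 22 tested, with a median of 0.24. Timp3 and Mmp9, an inhibitor and a protease of the extracellular matrix, fell by 1.91 and 1.96 on the log2 scale. Krt18, a keratin gene, and Vegfa rose by 1.21 and 0.98 (edgeR, adjusted p of 3.35e-10 or less for the 4). Il6 and Ereg had too few reads to be tested.

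The genes of the ATF4 and CHOP branch, to which Atf3 also belongs, were mostly lower, 10 of 15 against 2 higher, with a median of -0.33. Over all tested genes 31.6% were lower and 31.0% higher. Ddit4, an inhibitor of mTORC1, was at 64.9 ± 4.82 CPM in induced and 122.8 ± 3.65 CPM in KO libraries (SD, n = 3 each). Slc7a11, the cystine transporter gene, Atf5 and Nupr1 had log2 fold changes of -2.15, -0.58 and -1.73, and with Ddit4 each had an adjusted p no higher than 4.62e-07 (edgeR). With unstranded counts the log2 fold change of Slc7a11 was -0.47, a much smaller difference in the same direction, and the cause was not tested. The count of higher genes in this branch was 1 without KO replicate 1 or 3, and without induced replicate 1 or 2. Of 14 heat shock genes, 8 rose and 2 fell, and the median was 0.18. The chaperone genes Hspb8, Bag3 and Hspd1 rose by 0.97, 0.76 and 0.43 on the log2 scale, and Hsp90aa1 fell by 0.42 (edgeR, adjusted p of 8.41e-08 or less for the 4). The count of higher heat shock genes was 5 without KO replicate 1 or 2, and without induced replicate 3.

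**Figure D5:**
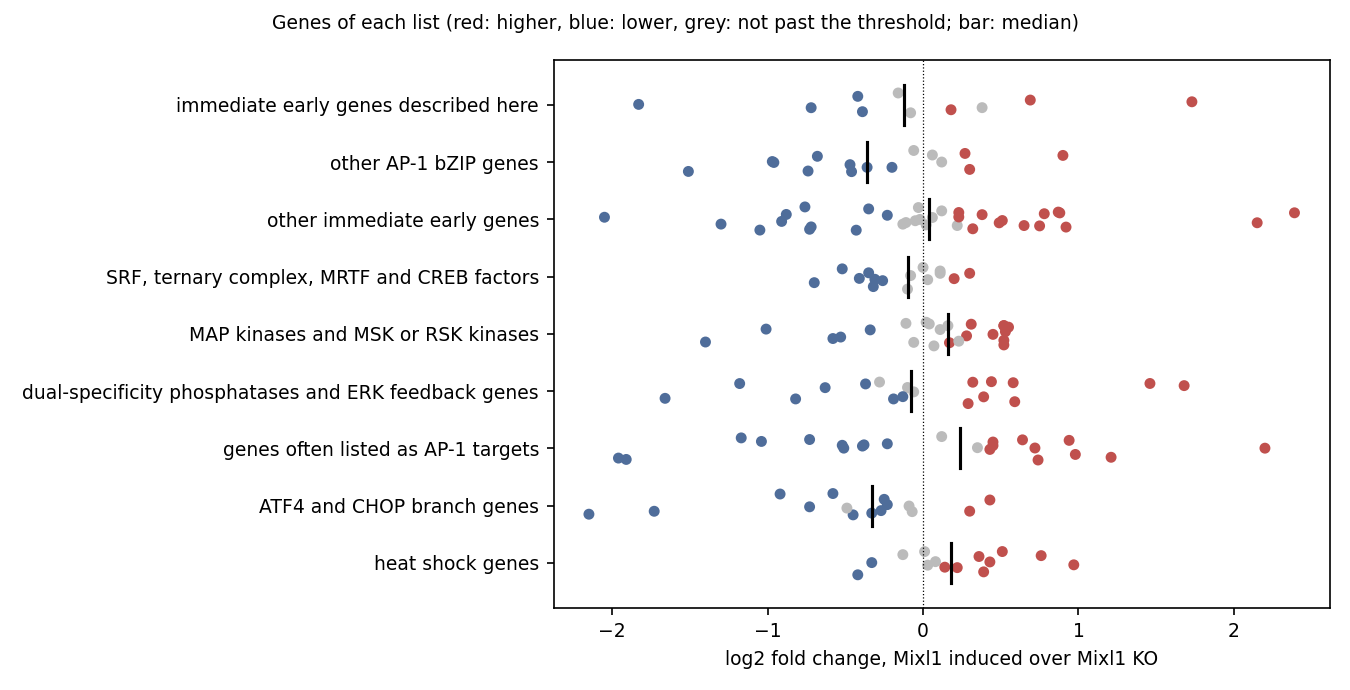
Log2 fold change, Mixl1 induced over Mixl1 KO, on the x axis for each tested gene of the lists named on the y axis, with genes past an adjusted p of 0.05 in red (higher) or blue (lower), others in grey, and the median as a bar. Medians run from -0.36 for other AP-1 zipper genes to 0.24 for genes often listed as AP-1 targets, and points lie on both sides of zero in each list.

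Genes with the most similar profile were sought as the smallest mean absolute difference of centred log2 CPM over the 6 libraries, among 10749 protein-coding genes of at least 5 CPM on average. For Fos they were Ddx5, Dhx8 and Fam91a1 (0.015 to 0.016), and for Ier2 they were Tead2, Atp5g3 and Naa15 (0.014 to 0.015). Junb was closest to Perp, Arel1 and Rragc (0.025 to 0.028), and Jund to Ptk7, Pacsin1 and Ier3 (0.021 to 0.030). Jun was nearest to Zc3h11a, Nthl1 and 1190007I07Rik (0.045 to 0.062), and Fosb to Slc9a9, Siae and Thsd7a (0.057 to 0.065). Egr3 resembled Sfrp2, Fzd2 and St8sia2 (0.021 to 0.034), and Atf3 resembled Zfp467, Ppm1k and Abcc1 (0.063 to 0.070). Egr2 and Egr1 had no neighbour as near. For Egr2 the nearest were Ano1, Lrrc4b and Foxc1 (0.135 to 0.142), and for Egr1 Fbn1 and Slc6a15 were among the nearest (0.153 and 0.172). The 10 genes themselves were left out of that search. Among them, the closest pair was Jun and Junb, at 0.105.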

How the data were processed

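The 6 libraries, 3 per group by their titles, were analysed. The authors deposited raw counts per gene for each library, in columns for unstranded, same-strand and opposite-strand reads, and per the submitters' processing notes used bcl2fastq, STAR and DESeq2 with mm10 (versions not given in the sources used here). Opposite-strand counts were used, which held 96.2% to 96.3% of stranded gene reads and fit the stranded kit in the labels' protocols. Rows naming no gene took 15.1% to 17.6% of reads and were left out. Multimapped reads were not counted. The authors' deposited table of the comparison holds, per its header, a signal (mean normalised count), a log2 fold change with standard error, a Wald score, p-values and −log10 of the adjusted p.

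Identifiers were matched to GENCODE M21 (55230 of 55471). edgeR 4.0.16 (R 4.3.3) was run with filterByExpr, TMM and a robust quasi-likelihood fit on group alone, two-sided. It was also run on simulated data in which few genes changed. That run does not check the fit where as many genes change as here. Fold changes are induced over KO. Standard errors are the estimate over the square root of F, with a median of 0.0837. Promoter sequences are RefSeq's; 7 members had a window, and the Jund window, 1210 bases from the GENCODE start, was not used. Genes named from the lists were up to 4 past the threshold with the smallest p, any gene alone in its direction, and Nab1, Nab2, Srf and Dusp1. Of the genes with similar profiles, 1 is not reported here. Members and lists were chosen with earlier results of these data known. Alternatives were DESeq2 1.42.0 or upper-quartile factors, other count filters, unstranded counts, a replicate term, each library left out, DESeq2, limma-voom (limma 3.58.1) and a test against a 2-fold change.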

Additional observations from a re-analysis of the deposited data

How the results depend on the processing

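Direction and call of the 10 immediate early genes were the same in 144 of 150 comparisons with an alternative. A test against a 2-fold change called 1 member higher, 1 lower and 1628 genes in all, against 3, 4 and 9450, since it asks for a larger change. Leaving out each library in turn called 8863 to 9225 genes, and in each case 3 members higher and 4 lower. Egr1 gave -0.41 to 0.17 with each library left out, changing sign without KO replicate 1, and never passed. The replicate number as a block called 9647 genes, with 3 and 4 members, and gave Egr1 an adjusted p of 0.215 (edgeR). Deviations of same-numbered libraries correlated at 0.022, 0.156 and 0.136 across 9721 genes, and those of different-numbered libraries at -0.285 to 0.179. Not every library correlated best with its own number. With 3 libraries per group, these values cannot decide whether the numbers pair the libraries. Egr1 was highest in replicate 1 and lowest in replicate 3 in both groups. DESeq2 called 8568 genes. The count of list genes called higher moved from 2 to 1 for the promoter factors and the ATF4 branch with unstranded counts and with DESeq2, and for the promoter factors also with upper-quartile factors or no filter; the cause was not tested. Under the test against a 2-fold change the lists had 0 to 2 genes higher and 0 to 2 lower. Depth limits Fosb, with 83 reads in induced and 65 in KO libraries together.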
